A study of Zea mays with 42 samples.

Results

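The genes described here are fie1, fie2, mez1, mez2 and mez3, the maize relatives of 2 core subunits of Polycomb repressive complex 2. They were found by whole symbol or synonym in the platform's gene table, which gave 1 probe set for each gene, 5 of the 17734 probe sets on the array. By gene model they are fie1 (GRMZM2G118205), fie2 (GRMZM2G148924), mez1 (GRMZM2G157820), mez2 (GRMZM5G875502) and mez3 (GRMZM2G043484). The data set holds 42 Affymetrix arrays of untreated B73, an inbred line, 3 biological replicates per tissue in 14 tissues. Embryo and endosperm were collected at 10, 15, 20 and 25 days after pollination (DAP), root, stem, stem tip and leaf at the big trumpet period of vegetative growth, and ear and silk before pollination. All plants were grown under normal agricultural practice, and the labels do not say whether plants were pooled within a replicate. The 6 tissues outside the seed serve here as the comparison group for embryo and endosperm.

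Polycomb repressive complex 2 keeps genes silent by methylating lysine 27 of histone H3. Its catalytic subunit belongs to the Enhancer of zeste family, which in maize comprises mez1, mez2 and mez3, and its WD40 subunit, the ESC or FIE protein, is encoded in maize by fie1 and fie2. In the seeds of flowering plants the complex restrains endosperm development, and fie1, fie2 and mez1 are known as imprinted genes of the maize endosperm, for which the copies from the mother and the father are not used alike. B73 is inbred and a probe set sums both copies, so imprinting cannot be read from these arrays.

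Each value is a MAS5 signal, the authors' summary of a probe set on 1 array on a linear intensity scale. Log2 differences were tested with limma, all arrays sharing one fit, and a gene counts as called where it differs by a fold of 2 or more with an adjusted p below 0.05. Signals of one probe set were not set against those of another, since probe sets differ in their response. The 66 probe sets for reporter genes, which are not maize genes, show what signal an array gives without a matching maize transcript. Their median on an array was 24.6 to 57.9, and their 90th percentile was 72.4 to 173, highest in endosperm.

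The median r between replicates of a tissue was 0.991. It was lowest among the root arrays, and within their own tissues root 1, stem 2 and ear 3 correlated least with the other replicates. The trimmed mean signal was 886 to 1020 on endosperm arrays, 987 to 1070 on embryo arrays and 1130 to 1244 on non-seed arrays. The 18 endosperm marker probe sets, for zeins and starch enzymes with their regulators, summed to 141026 to 219186 on endosperm arrays and to 1554 to 3933 on non-seed arrays. On embryo arrays their sum was 31329 to 72158 at 10 DAP, 8339 to 54467 at 15 DAP and 6154 to 9270 later, and no marker probe set was at 0. The 15 DAP embryo array of replicate 2 stood apart, with a median of 21.8% of the endosperm level over these markers against 1.46% and 1.25% in the other replicates. The 10 embryo marker probe sets summed to 28007 to 88785 on embryo arrays. On endosperm arrays their sum was 2557 to 9612 from 10 to 20 DAP and 22002 to 24683 at 25 DAP.

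fie1 was an endosperm transcript in this panel. In 10 DAP endosperm its signal was 2619, 2740 and 2840, and at 15 DAP 1867, 2015 and 2111. The later endosperm arrays gave 2512, 2660 and 2342 (20 DAP) and 2147, 2191 and 2180 (25 DAP). On the 18 non-seed arrays the lowest signal was 45.6, the median 58.9 and the highest 77.0. Every endosperm array therefore lay far above every non-seed array. The non-seed signals were under the 90th percentile of the reporter probe sets on 18 of 18 arrays, and above their median on the same 18.

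In the embryo fie1 was above that background at 10 DAP, with signals of 533, 293 and 267. From 15 DAP it was not, with signals of 30.6, 54.6 and 28.3. The 20 DAP arrays gave 34.8, 46.5 and 44.3 and the 25 DAP arrays 42.6, 42.1 and 37.0. All 9 of these later arrays were under the 90th percentile of the reporters, and 2 of them under the median. In the order of the tissue means, the 4 endosperm stages came first and the 10 DAP embryo next, and its arrays overlapped with neither neighbour. The other 9 tissues followed with means of 37.8 to 69.4, and each of them overlapped with the next. Fewer cells that express a gene and less RNA per cell cannot be told apart in such bulk samples.

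**Figure D1:**
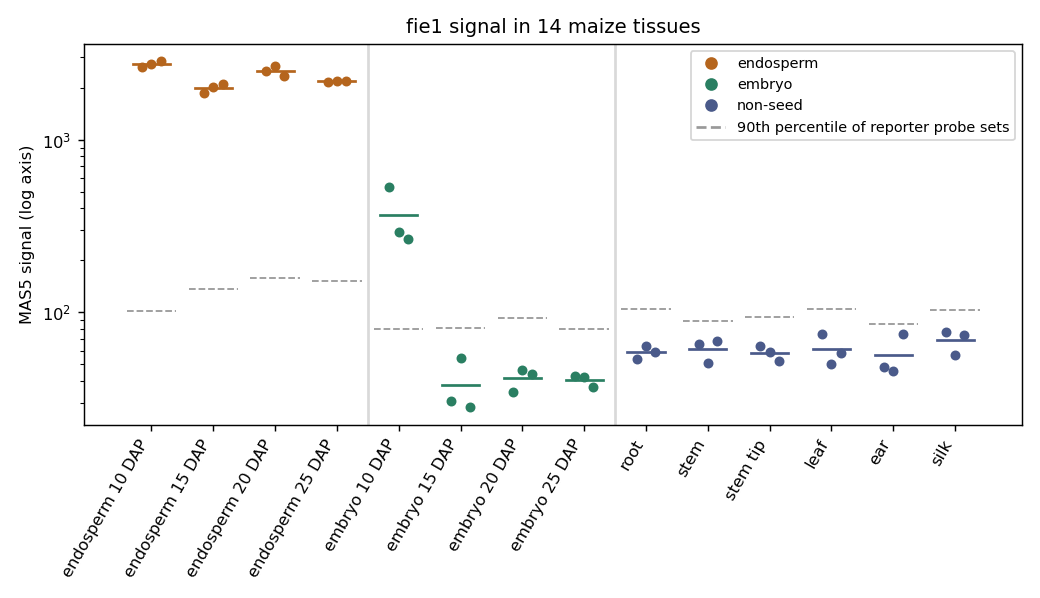
MAS5 signal of fie1 on a log axis in 14 tissues, with a point per array and a bar at the mean of 3 replicates. The 12 endosperm arrays sit between 1867 and 2840, the 10 DAP embryo arrays between 267 and 533, and the other 27 arrays between 28.3 and 77.0, under the dashed lines that mark the mean 90th percentile of the reporter probe sets.

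On the log2 scale fie1 was 5.28 ± 0.10 (SE) higher in endosperm than in the non-seed tissues (limma adjusted p = 8.86e-31). With signals under 100 taken as 100, this is at least 23.3-fold. In the same comparison mez1 and mez2 were also called higher, so that 3 of the 5 genes rose, against 16.8% of all probe sets tested. fie2 and mez3 were not called. Against the embryo of the same age, fie1 in endosperm was higher by 2.98 ± 0.22 at 10 DAP (limma adjusted p = 3.15e-13). At the 3 later ages the fitted difference was 5.79, 5.91 and 5.75, with the same SE, against embryo signals at background. With signals under 100 taken as 100, fie1 was at least 20.0-fold, 25.0-fold and 21.7-fold higher at these ages. From the youngest to the oldest age, 6.78%, 15.9%, 20.2% and 21.4% of all probe sets were called higher in endosperm.

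With age, no change of fie1 was called in endosperm, where 17.4% of all probe sets were called from 10 to 25 DAP. The highest endosperm mean was 1.37 times the lowest, and the difference from 10 to 25 DAP was −0.33 ± 0.22 (limma adjusted p = 0.212, 95% confidence interval −0.78 to 0.12). Over the same ages the embryo signal fell by 3.10 ± 0.22 (adjusted p = 1.67e-13), as did 7.72% of all probe sets, and the fall lay between 10 and 15 DAP, where the signal fell by 3.26 (adjusted p = 8.14e-13) and 1.87% of all probe sets were called lower. The later embryo signals are at the level of the reporters, and with signals under 100 taken as 100 the fall from 10 to 15 DAP is at least 3.47-fold. The change with age differed between endosperm and embryo by 2.77 ± 0.31 (adjusted p = 1.60e-08), a comparison in which 13.8% of all probe sets were called higher. With signals under 100 taken as 100 this difference was 1.46. Averaged over its 4 stages, the embryo did not differ detectably from the non-seed tissues (0.17 ± 0.10, adjusted p = 0.112). That average rests on the 10 DAP arrays, and without them it was −0.61 ± 0.11 (adjusted p = 5.84e-06), between signals that were all under the 90th percentile of the reporters.

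Endosperm markers also gave signal on the 10 DAP embryo arrays. The fie1 signal there was 19.5%, 10.7% and 9.77% of the 10 DAP endosperm mean in replicates 1, 2 and 3. The median over the 17 marker probe sets at 100 or more in endosperm was 47.1%, 16.6% and 25.2% in the same replicates. Replicate 1 was highest for both, while replicates 2 and 3 ranked in opposite order. Shares of single markers over the 3 replicates ranged from 9.13% for a probe set of o2, which encodes an activator of zein genes, to 71.1% for a probe set of the 27 kDa gamma zein gz27. pbf1, the prolamin-box binding factor that also acts on zein genes, was at 10.9%, and wx1, the granule-bound starch synthase, at 16.5%. fie1, at 13.3%, lay near the lower end of this range, between pbf1 and wx1. The gz27 probe set at its upper end was not confined to endosperm, with a share of 148% at 15 DAP. The other gz27 probe sets were at 34.0% and 41.5% at 10 DAP. gz27 and dzs18 have several probe sets each, so they weigh more in the marker medians.

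At 15 DAP the shares of fie1 were 1.53%, 2.73% and 1.41%, where the marker medians were 1.46%, 21.8% and 1.25% in the same replicates. At 20 and 25 DAP the embryo showed 1.67% and 1.87% of the endosperm fie1 signal, against marker medians of 1.26% and 1.08%. The fie1 signals from 15 DAP lie under the 90th percentile of the reporters, so these fie1 shares are upper limits. Their order over the replicates lies within background. The part that endosperm RNA may have in the fie1 signal of young embryos was not tested. Without the 15 DAP embryo array of replicate 2, the log2 difference of fie1 between endosperm and embryo at 15 DAP was 6.08, against 5.79 with it. That array had the highest fie1 signal of its age and tissue. Leaving it out could only widen the difference, so this is no check of the call.

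**Figure D2:**
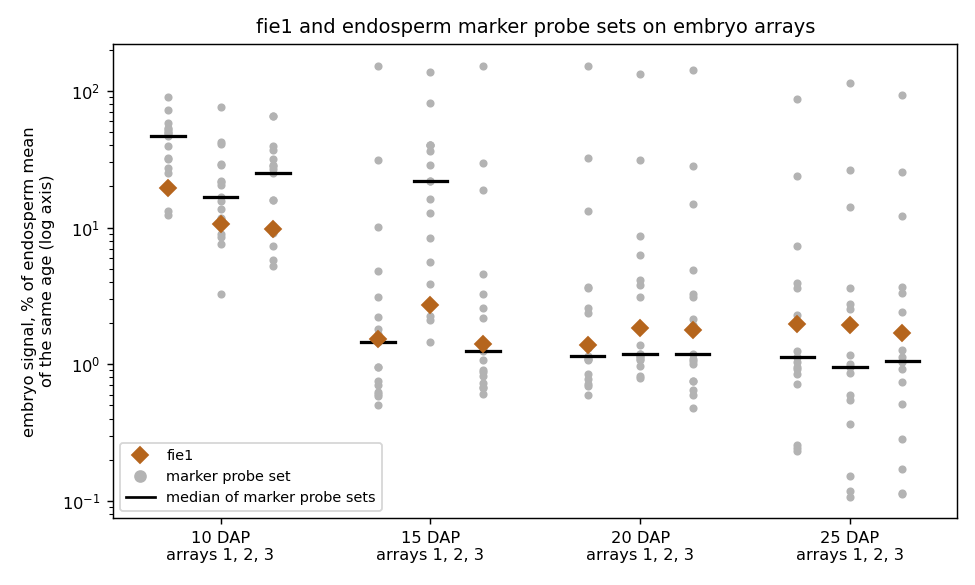
Embryo signal as a percentage of the endosperm mean of the same age, on a log axis, for fie1 (diamonds) and 17 endosperm marker probe sets (grey points, with a black bar at their median), for each embryo array at 4 ages. At 10 DAP fie1 lies at 19.5%, 10.7% and 9.77%, below the marker median of each array, and from 15 DAP at 1.39% to 2.73%.

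Few probe sets on the array met the pattern of fie1 at a cutoff of 100. Of 17555 maize probe sets, 337 reached a signal of 100 on all endosperm arrays and stayed under 100 on all non-seed arrays. Among them 221 were at 100 or more on all 10 DAP embryo arrays, and 14, fie1 included, combined this with signals under 100 on all later embryo arrays. The 10 DAP embryo carried a median of 63.8% of the endosperm signal over the 337, and 302 of them had a higher share than fie1. For probe sets near 100 in endosperm, background alone can give a high share. The 90th percentile of the reporters was 79.1 to 82.6 on the 10 DAP embryo arrays. The pattern was read from fie1 itself, and the cutoff leaves out brighter genes of like profile. One is bt1, whose tissue profile correlated with that of fie1 at r = 0.98 but whose embryo signals were all at least 118. These counts describe the panel and were not tested.

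fie2, the second FIE gene, was present in all tissues and was lower in endosperm than in embryo. In endosperm its 12 signals ran from 318 through a median of 382 to 449, and in embryo from 711 through 893 to 1167, without overlap. From the youngest to the oldest age, the embryo means were 1107 ± 62.2 (SD, n = 3), 798 ± 76.0, 910 ± 49.8 and 890 ± 6.81. The endosperm means were 429 ± 33.4, 337 ± 18.2, 418 ± 34.9 and 378 ± 7.53 at the same ages.

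Outside the seed fie2 varied more, from 231 through a median of 546 to 971. The stem tip, which holds the shoot meristem, had 971, 855 and 701, and stem had 575, 903 and 771. Silk was lowest with 339, 346 and 231, next to leaf with 398, 393 and 322. Ear gave 623, 691 and 350, and root 493, 656 and 518. In the order of tissue means the 10 DAP embryo stood first with no overlap with the 20 DAP embryo after it, while stem tip lay among the later embryo stages and overlapped with its neighbours.

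fie2 was lower in endosperm than in embryo by 1.24 ± 0.09 on the log2 scale (limma adjusted p = 3.33e-14), where 16.7% of all probe sets were called lower. fie1 was called higher in the same comparison, as were 14.8% of all probe sets, and the other 3 genes were not called. At the 4 ages the fie2 difference was −1.37, −1.24, −1.12 and −1.24, each called, where 12.7%, 18%, 18.9% and 18.4% of all probe sets were lower. Centred on array medians, the difference at 20 DAP was −0.96 and no longer called. Its change from 10 to 25 DAP was −0.18 in endosperm (adjusted p = 0.432) and −0.31 in embryo (adjusted p = 0.154). No difference in age change between these tissues was detected (0.13, confidence interval −0.40 to 0.66, adjusted p = 0.707).

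Against the non-seed tissues fie2 missed the fold threshold in both seed tissues. The embryo was higher by 0.82 ± 0.08 (limma adjusted p = 1.06e-10) and endosperm lower, at −0.42 ± 0.08 (adjusted p = 2.21e-05). Scaled to one trimmed mean, the embryo difference became 1.04 and was called, while that of endosperm became −0.11 (adjusted p = 0.223). The 3′ to 5′ ratio of an elongation factor 1-alpha control, a sign of shortened labelled RNA, was also highest outside the seed. It was high in ear, silk, stem 1 and stem 3. In stem the log2 ratios were 5.51, 1.40 and 4.64, at fie2 signals of 575, 903 and 771. The actin control went the same way in ear (log2 ratios of 3.04 to 3.35) and silk (3.19 to 3.41), against at most 2.85 on seed arrays. In stem the actin ratios were 3.43, 2.26 and 3.57. The GAPDH control did not share this pattern, its highest log2 ratio being 1.47 on a 20 DAP embryo array. Leaf had low fie2 signals at EF1-alpha ratios of 1.62 to 1.87. The log2 EF1-alpha ratio was 6.92 on ear 3, where fie2 was at 350, and 3.58 and 3.97 on the other ear arrays, where fie2 was at 623 and 691. With this ratio as a covariate the fie2 differences from non-seed tissues were 0.50 in embryo and −0.72 in endosperm.

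Between endosperm and the non-seed tissues, the log2 differences of fie1 and fie2 were 5.70 apart (exact two-sided permutation p = 0.00952 over 210 arrangements of tissue means, the smallest value that this design can give). Of this, 5.28 was the difference of fie1 itself, and with signals under 100 taken as 100 the 2 genes were 4.97 apart. The stages share a tissue and are not independent.

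mez1, which encodes an Enhancer of zeste protein, was higher in both seed tissues than outside the seed. In endosperm its signals ran from 840 through a median of 1151 to 1704, in embryo from 576 through 708 to 1280, and in the non-seed tissues from 115 through 326 to 682. All endosperm arrays lay above all non-seed arrays, while embryo arrays overlapped with both. Endosperm gave 1057, 1043 and 1014 at 10 DAP and 1246, 1409 and 1405 at 15 DAP. It was highest at 20 DAP with 1313, 1483 and 1704, and lowest at 25 DAP with 915, 840 and 863. In embryo the means went from 1111 ± 197 (SD, n = 3) at 10 DAP to 829 ± 81.3, 624 ± 41.3 and 601 ± 26.0 at 15, 20 and 25 DAP.

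Outside the seed mez1 was highest in stem tip (659 ± 21.0), followed by ear (496 ± 61.8) and stem (488 ± 158). Silk (250 ± 71.9), leaf (233 ± 42.7) and root (213 ± 103) were lower. Root arrays spread from 115 to 320, with the highest value on root 1, the array that correlated least with its replicates.

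The endosperm signal of mez1 exceeded that of the non-seed tissues by 1.75 ± 0.11 (limma adjusted p = 1.65e-16). In embryo the excess was 1.15 ± 0.11 (adjusted p = 1.38e-11). mez1 and mez2 were called higher in the embryo comparison, 2 of the 5 genes, where 13.1% of all probe sets were. Without the 10 DAP embryo the mez1 difference was 0.97 and missed the fold threshold. Between endosperm and embryo the mean difference of 0.61 ± 0.12 stayed under that threshold (adjusted p = 2.07e-05). At 20 DAP it was 1.26 ± 0.24 and called (adjusted p = 1.81e-05), though 0.45 and not called when arrays were centred on hybridization controls, and at 10 DAP it was −0.08 (adjusted p = 0.790).

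In embryo mez1 differed by −0.87 ± 0.24 from 10 to 25 DAP (limma adjusted p = 0.00237), short of the fold threshold. The call depended on the scaling: after quantile normalization the difference was −1.16 and after centring on array medians −1.07, both called. In endosperm the difference from 20 to 25 DAP was −0.77 (adjusted p = 0.0211), also short of it.

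mez2, another Enhancer of zeste gene, rose with age in embryo, opposite to fie1. In embryo it gave 208, 259 and 242 at 10 DAP and 785, 704 and 664 at 15 DAP. The 20 DAP arrays gave 653, 651 and 656 and the 25 DAP arrays 1011, 1014 and 1013. The 10 DAP embryo arrays thus lay below all other seed arrays, and the 25 DAP arrays above all others of the panel. In endosperm its signals were 482, 525 and 450 at 10 DAP and then stayed between 609 and 749.

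In embryo mez2 rose by 1.60 ± 0.18 from 10 to 15 DAP (limma adjusted p = 4.11e-08), a step in which 3.64% of all probe sets were called higher. From 10 to 25 DAP it rose by 2.10 ± 0.18 (adjusted p = 1.04e-11), where 12.6% were called higher. Of the other genes fie1 was called lower there, and mez3 was called higher at signals within the background. In endosperm the difference from 10 to 25 DAP was 0.45 ± 0.18 (adjusted p = 0.0335), under the fold threshold, and none of the 5 genes was called there by limma, mez2 being the 1 gene with an unadjusted p below 0.05 (0.0157). The age change of mez2 differed between endosperm and embryo by −1.65 ± 0.25 (adjusted p = 3.36e-06), and 8.62% of all probe sets were called in that direction, of 22.5% in either.

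Since the embryo started lower and ended higher, the endosperm signal of mez2 was above that of embryo by 1.04 ± 0.18 at 10 DAP (limma adjusted p = 8.90e-06) and differed by −0.61 ± 0.18 at 25 DAP (adjusted p = 0.00276, short of the fold threshold). The 10 DAP call was lost without replicate 1 (0.96), with a pseudocount of 32 (0.95) and after centring on hybridization controls (0.83). The mean over ages was 0.09 ± 0.09 (adjusted p = 0.340), with a confidence interval of −0.09 to 0.27. On embryo arrays mez2 was lowest at 10 DAP, where the endosperm markers were highest. The part that endosperm RNA may have in the mez2 signal of embryo arrays was not tested.

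Outside the seed mez2 gave signals from 143 through a median of 283 to 450. The tissue means, each of 3 arrays, were 387 ± 34.8 in leaf, 351 ± 66.5 in stem, 331 ± 112 in stem tip, 290 ± 40.9 in root, 242 ± 50.6 in silk and 186 ± 38.7 in ear. Endosperm exceeded the non-seed mean by 1.11 ± 0.08 (limma adjusted p = 1.69e-14), and the arrays met only at the highest stem tip signal, 450.15, and the lowest of endosperm, 449.54. Embryo exceeded it by 1.02 ± 0.08 (adjusted p = 2.29e-13), which is close to the threshold, and without the 10 DAP embryo by 1.45. The excess did not hold at 10 DAP, where the embryo mean of 236 lay below every non-seed mean but that of ear.

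mez3, the remaining Enhancer of zeste gene, was not seen above background. Its signal was 12.0 to 69.6 over all 42 arrays and under the 90th percentile of the reporter probe sets on each of them. The 12 endosperm arrays, from 17.8 to 41.7, were all under the reporter median. In embryo the signals were 12.0 to 17.95 at 10 DAP and 35.4 to 69.6 later. The fit called a rise of 1.86 ± 0.30 in embryo from 10 to 25 DAP (limma adjusted p = 3.26e-06) and a difference in age change of −1.41 ± 0.42 (adjusted p = 0.00730). Both lie within the range of the reporters, and with signals under 100 taken as 100 both are 0. A low level of mez3 and no mez3 transcript cannot be told apart with this probe set.

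**Figure D3:**
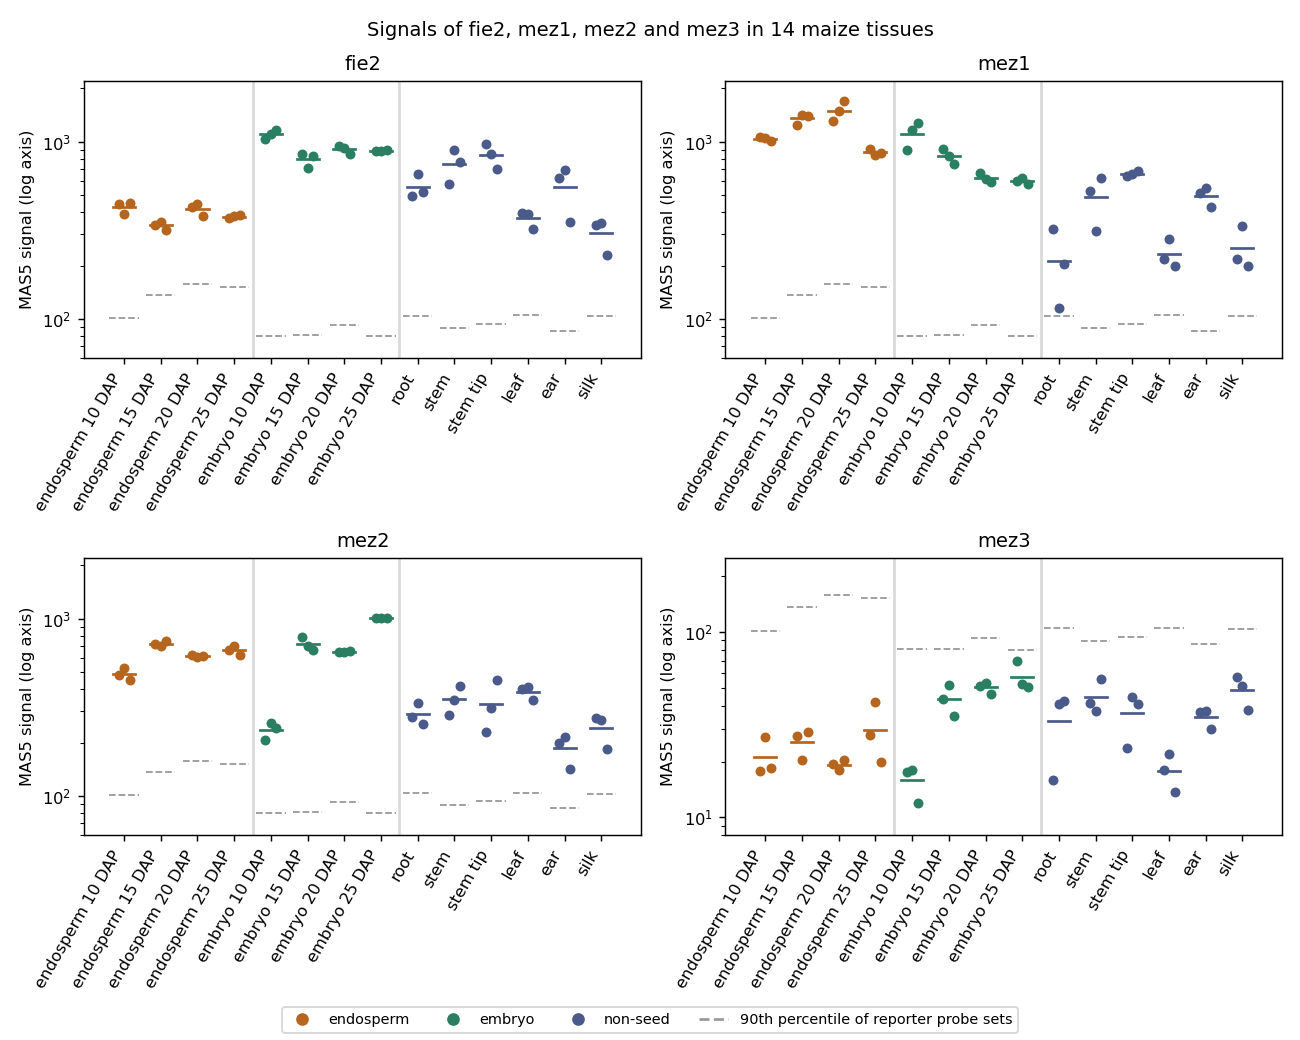
MAS5 signals of fie2, mez1, mez2 and mez3 on log axes in 14 tissues, with a point per array and a bar at the mean of 3 replicates; the mez3 panel has its own range. fie2 is lower on all endosperm arrays (318 to 449) than on all embryo arrays (711 to 1167), mez1 is highest in endosperm at 20 DAP (mean 1500), mez2 goes from 236 to 1013 in embryo between 10 and 25 DAP, and mez3 stays under the dashed lines that mark the mean 90th percentile of the reporters.

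**Figure D4:**
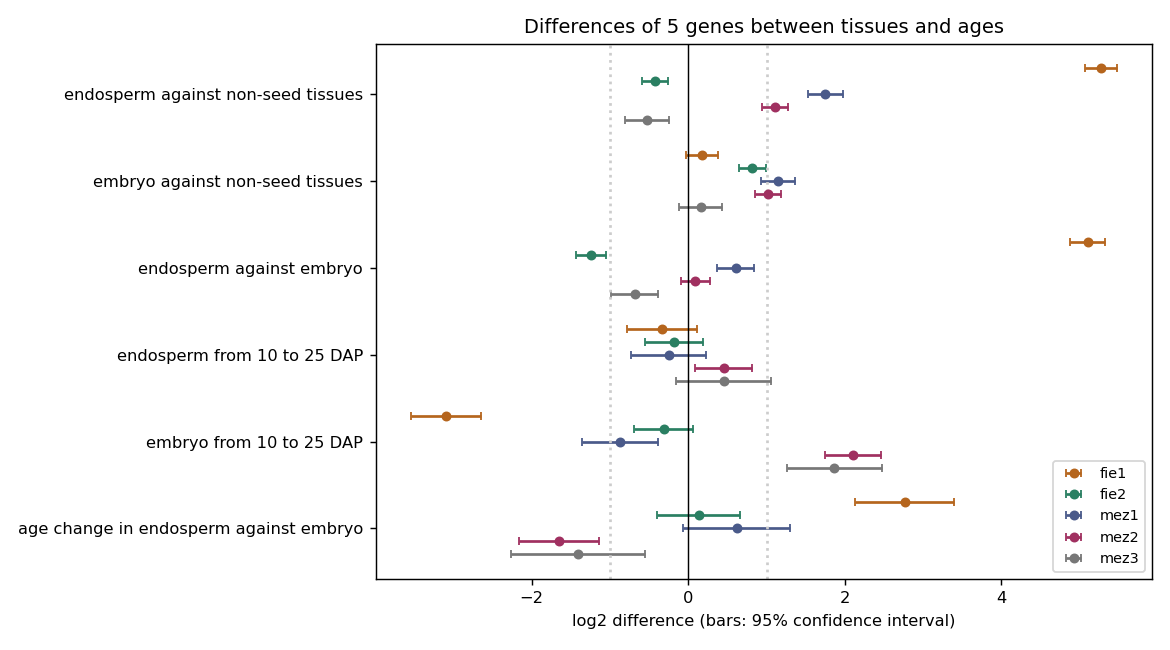
Log2 differences of the 5 genes in 6 comparisons, each a point with its 95% confidence interval, and dotted lines at a fold of 2. fie1 stands at 5.28 against the non-seed tissues and 5.11 against embryo, fie2 at −1.24 against embryo, and fie1 and mez2 take opposite signs in the embryo from 10 to 25 DAP (−3.10 and 2.10).

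The array also covers 5 further genes of the complex or its partners with 7 probe sets: vef101, a relative of the VEF-domain subunit Su(z)12, and nfc101, nfc102, nfc103 and nfc104, which are relatives of the WD40 protein MSI1 that binds histones. All 7 had signals of at least 100 on every endosperm and embryo array. None was called between endosperm and the non-seed tissues, where the median difference was 0.01 against 0.03 for all probe sets tested. In embryo 1 of the 7, nfc104, was called higher than in the non-seed tissues (1.02 ± 0.11, limma adjusted p = 1.43e-10), near the 13.1% of all probe sets. nfc104 was also the 1 of the 7 called lower in endosperm than in embryo, at −1.09, where 16.7% of all probe sets were lower.

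nfc104 varied more than the other partners. Its signals were 1957, 1630 and 1788 in the 10 DAP embryo and 446 to 624 in later embryos, and in endosperm it went from 784, 835 and 897 at 10 DAP to 255, 218 and 218 at 25 DAP. The fall was 1.65 ± 0.23 in embryo and 1.87 ± 0.23 in endosperm. Leaf was lowest with 112, 87.4 and 86.2. The signal of nfc101 was 2241 to 2664 in endosperm and 2791 to 5730 in embryo, and that of vef101 was 258 to 423 in endosperm and 494 to 689 in embryo, both without overlap. As differences these were −0.64 for nfc101 and −0.72 for vef101, under the fold threshold. The 3 probe sets of nfc102 differed between endosperm and embryo by 0.01, 0.13 and −0.35, and nfc103 by −0.22. These means over ages hide a crossing in the second nfc102 probe set. From 10 to 25 DAP its mean went from 3575 to 3841 in endosperm and from 5059 to 2605 in embryo. This age change differed by 1.06 (limma adjusted p = 2.34e-07), called as were 13.8% of all probe sets. The first nfc102 probe set gave 0.69 there, under the fold threshold.

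**Figure D5:**
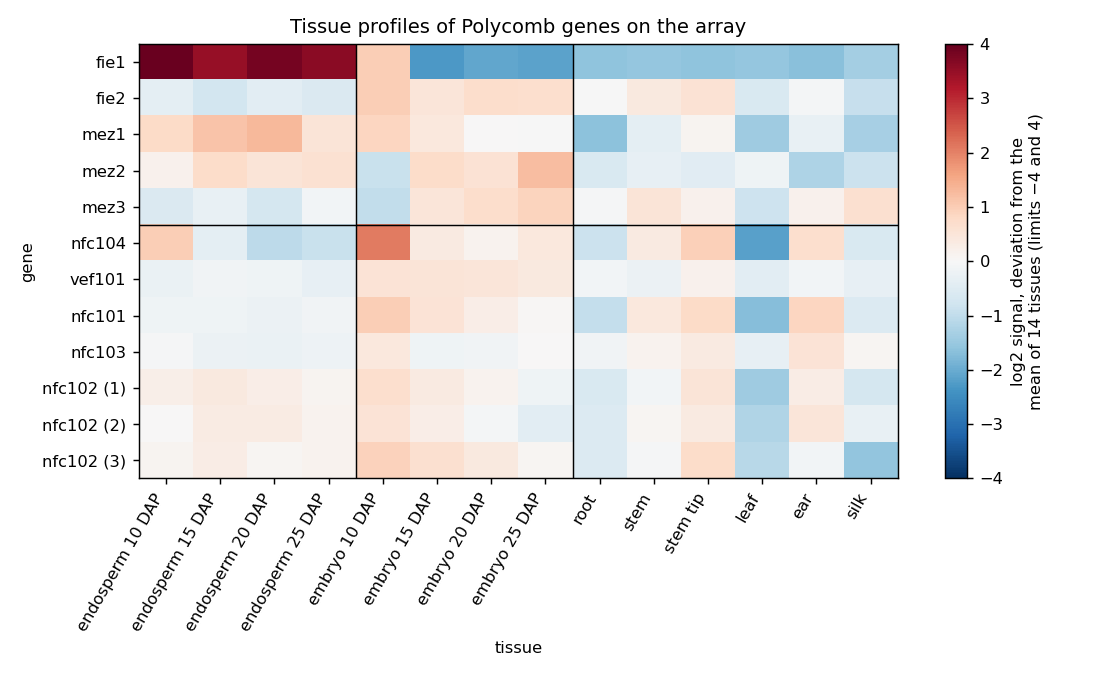
Mean log2 signal of each probe set in 14 tissues as its deviation from the mean of the 14, from −4 (blue) to 4 (red), for the 5 genes above the line and 7 probe sets of 5 partner genes below it, with nfc102 in 3 rows. fie1 has the widest range, the partners have their deepest blue in leaf for nfc104, and nfc104 is reddest in the 10 DAP embryo.

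Among other chromatin genes, 3 of 8 probe sets of further SET-domain genes were called higher in endosperm than outside the seed and none lower, against 16.8% of all probe sets called higher. A probe set of sdg113 had signals of 109 to 210 in endosperm and 25.2 to 71.4 outside the seed (1.96 ± 0.10, limma adjusted p = 4.58e-19), and one of sdg110 had 143 to 331 against 43.9 to 131 (1.61 ± 0.12). The 90th percentile of the reporters was 89.2 to 173 on endosperm arrays and 75.2 to 128 on non-seed arrays. The sdg113 signals outside the seed were all under it, and the other signals overlapped with these ranges, so both differences lie near background. The other sdg113 probe set was also called (1.25), while the remaining 3 of sdg110 were not (0.09, 0.50 and −0.25) and so disagree with the first. Against the same 16.8%, 1 of 11 histone deacetylase probe sets was called higher, and 2 of 6 DNA methyltransferase probe sets were, dmt106 (1.12) and 1 of the 4 probe sets of dmt105 (2.15). The other dmt105 probe sets gave −0.09, 0.19 and 0.05, so they disagree. In embryo 5 of the 6 methyltransferase probe sets fell from 10 to 25 DAP, all 4 of dmt105 and that of dmt101, where 7.72% of all probe sets were called lower.

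Cell division genes, like fie2, had high signals in the 10 DAP embryo and in stem tip and low ones in endosperm from 15 DAP and in leaf. The 10 probe sets of this list summed to 22480 to 23067 in the 10 DAP embryo, 20442 to 23050 in stem tip, 4620 to 6050 in endosperm at 15 DAP and 2728 to 3104 in leaf. Between endosperm and embryo 8 of the 10 were called lower in endosperm, with a median of −1.95, against 16.7% of all probe sets and a median of 0.12 over all. Other stages went differently. The list summed to 11432 to 12907 in 10 DAP endosperm and to 8879 to 9929 in the 25 DAP embryo, where the fie2 means were 429 and 890. From 10 to 25 DAP the median difference of the list was −1.59 in endosperm and −1.38 in embryo, and no fie2 change was called. The part of dividing cells in the fie2 differences was not tested.

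Over the 14 tissue means of log2 signal, the 5 named genes with profiles most like fie1 were PBF (r = 0.99), x34.3 (0.98), bt1 (0.98), Scl1 (0.97) and hag (0.97). PBF is the prolamin-box binding factor, and bt1 encodes the transporter that brings ADP-glucose into amyloplasts for starch synthesis. In all, 97 of 17620 other probe sets reached an r of 0.95 with fie1. Far fewer did so for the other genes: 1 with fie2, 4 with mez1 and 0 with mez2 and mez3. These correlations are across tissues that include 4 stages of endosperm and 4 of embryo, and they are given as a description.

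fie2 was most like zfp30 (r = 0.94), MCM6 (0.91), nfa101 (0.90), GRF2 (0.90) and atGRF2 (0.90). MCM6 belongs to the helicase that opens DNA for replication, and nfa101 is a nucleosome assembly factor. mez1 was most like homeobox1 (0.95), ae1 (0.93), pdi12 (0.92), met5 (0.92) and AK1 (0.92). ae1 is a starch branching enzyme, pdi12 a protein disulfide isomerase, and met5 another name of dmt105, here by the probe set that differed from its other 3. For mez2 the highest values were 0.83 for cl3393_1 and 0.80 for the retinoblastoma-related RBR2, followed by gpm645 with its 2 probe sets (0.80 and 0.79) and MEI2-like (0.80). For mez3, whose signals lay in the background, they were 0.85 for the cellulose synthase CesA-1, 0.83 for the D-type cyclin cycD2, 0.83 for NIP3-1, 0.82 for CesA-8 and 0.80 for the expansin expA4.

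Among the 5 genes themselves, fie1 and mez1 had the highest correlation over the 14 tissue means (r = 0.68). fie1 ran against fie2 (−0.49) and against the background signal of mez3 (−0.63). The pair of mez1 and mez2 stood at 0.47, and fie2 was near 0 with mez2 (0.03).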

How the data were processed

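Per the labels, total RNA of B73 tissues was labelled with a 3′ kit and hybridized to Affymetrix maize arrays. The authors summarized each probe set with MAS5, and the deposited values are signals on a linear intensity scale. The version of MAS5 and its scaling target are not given in the sources used here. No scaling or filter was added, and log2 signals of all 42 arrays entered one group-means model (limma 3.58.1, eBayes with trend, in R 4.3.3). Benjamini-Hochberg adjustment covered all 17621 probe sets other than controls, and calls needed both a fold of 2 and an adjusted p below 0.05. Confidence intervals are 95% intervals from the fit's SE. The mean of the 4 stages of a seed tissue was set against the other seed tissue or the 6 non-seed tissues, and ages were compared within tissues. The fie1 and fie2 profiles were set against each other by exact permutation in scipy 1.17.1 (Python 3.11.15). The fit was tested on simulated data with known changes.

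The labels call the replicates biological and do not say from how many plants they came, so p-values measure the spread between these samples. Arrays have no read depth, and their number limits the precision. No 2 arrays shared more than 0.0338% of their values. The genes, lists and tests were chosen with earlier results of these data known. Genes named are the 5, every probe set of their complex partners, up to 2 called probe sets per direction of each other chromatin list without overlap between endosperm and non-seed arrays, and the 5 named probe sets most like each gene; dmt101, dmt105 and dmt106 were chosen after seeing their values, and pbf1, o2, gz27 and wx1 as markers. The gene table gives 1452 probe sets 1 symbol and 1 probe set several, and RefSeq names were found for 1377, so lists hold only part of their families. Alternatives were other normalizations, a pseudocount of 32, a floor of 100, a filter, no trend, fewer arrays, a replicate block and no fold threshold. After the data were seen, a 3′ to 5′ covariate, one trimmed mean, and fits without the 10 DAP embryo or 1 array of the 15 DAP embryo were added.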

Additional observations from a re-analysis of the deposited data

Results flagged for a closer look

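For 3 of the 5 genes the change from 10 to 25 DAP differed between endosperm and embryo in the interaction term of the limma fit. fie1 differed by 2.77 (adjusted p = 1.60e-08), with −0.33 in endosperm and −3.10 in embryo, and by 1.46 with signals under 100 taken as 100. mez2 differed by −1.65 (adjusted p = 3.36e-06), with 0.45 in endosperm and 2.10 in embryo. mez3 differed by −1.41 (adjusted p = 0.00730), with 0.45 in endosperm and 1.86 in embryo, at signals under the 90th percentile of the reporter probe sets on all 42 arrays, and by 0 with that floor. Of all probe sets tested, 22.5% were called in this comparison. With 3 arrays per tissue, Dixon's test for an outlying array was not run.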

How the results depend on the processing

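Of 1359 values recomputed under an alternative, 1283 kept their direction and side of the threshold, 20 lost a call, 30 gained one, and 26 turned their sign, all of them differences that were not called either way. For fie1 269 of 274 kept both and the other 5 turned their sign, with no call lost or gained. The sign turned after centring on hybridization controls for mez2 between endosperm and embryo (−0.47; at 15 DAP −0.43), in endosperm from 10 to 25 DAP (−0.032) and in embryo from 15 to 20 DAP (0.079), for mez1 at 25 DAP (−0.26) and in endosperm from 15 to 20 DAP (−0.0075), for mez3 in endosperm from 10 to 25 DAP (−0.031) and from 10 to 15 DAP (−0.079), and for the age change of fie2 (−0.45). Without the 10 DAP embryo it turned for fie1 between embryo and non-seed tissues (−0.61) and for mez2 between endosperm and embryo (−0.34). At 10 DAP the difference of mez1 between endosperm and embryo turned with quantile normalization (0.10), array medians (0.11) and one trimmed mean (0.064), and at 20 DAP that of mez2 did (0.080, 0.084 and 0.0061). Array medians also turned mez2 in endosperm from 20 to 25 DAP (−0.0041), and quantile normalization fie1 in embryo from 20 to 25 DAP (0.037). With each replicate left out in turn, values spanned 0 for fie1 in embryo (−0.024 to 0.42 from 15 to 20 DAP, −0.20 to 0.074 from 20 to 25 DAP), fie2 in embryo from 20 to 25 DAP (−0.081 to 0.0013), mez1 at 10 DAP (−0.24 to 0.044), mez2 at 15 DAP (−0.065 to 0.085) and mez3 between embryo and non-seed tissues (−0.0050 to 0.29). Centring on hybridization controls took the mez2 difference between endosperm and non-seed tissues to 0.70, without a call. For embryo against non-seed tissues, mez2 lost its call with a pseudocount (0.95), without root 1, stem 2 and ear 3 (0.99) and with the 3′ to 5′ covariate (0.97), and over the replicates left out in turn it was 0.99 to 1.07, without a call when replicate 1 was left out. mez1 lost its call there without the 10 DAP embryo (0.97), and fie2 gained one with one trimmed mean (1.04). The mez3 difference between endosperm and embryo gained a call with quantile normalization (−1.01), hybridization controls (−1.25) and without the 10 DAP embryo (−1.10). From 10 to 25 DAP in embryo, mez3 lost its call with a pseudocount (0.90) and a floor of 100 (0). mez1 gained one with quantile normalization (−1.16) and array medians (−1.07), and ranged from −1.02 to −0.73 with a replicate left out, called without replicate 1. The mez3 age interaction lost its call with a pseudocount (−0.69) and the floor (0), and without replicate 3, with a range of −1.66 to −1.13 over the replicates left out. With no fold threshold, further calls were fie2 (−0.42) and mez3 (−0.53) for endosperm against non-seed tissues, fie2 (0.82) for embryo against non-seed tissues, mez1 (0.61) and mez3 (−0.69) for endosperm against embryo, and mez2 in endosperm (0.45) and mez1 in embryo (−0.87) from 10 to 25 DAP. The cause of these changes was not tested, except that the pseudocount and the floor shrink low signals by construction.

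Replicate numbers showed little pairing of the arrays: same-numbered arrays deviated together at a mean r of 0.012, against −0.006 for other numbers. Of 273 same-numbered pairs 44 exceeded 0.1, and 20 of 42 arrays correlated best with their own number. Pairing was not tested, and a weak one is not excluded. With the replicate number as a block, fie1 differed by 5.28 between endosperm and non-seed tissues and fie2 by −1.24 between endosperm and embryo, and the block changed no call of the main comparisons. Hybridization controls moved the median of all probe sets between endosperm and non-seed tissues from 0.03 to −0.38, with 1846 higher and 5199 lower against 2955 and 3685 as deposited, and one trimmed mean moved it to 0.35, with 4360 and 2860. Between endosperm and embryo the split went from 2610 and 2942 to 1047 and 5109. Signals under 100 give bounds only, and each gene rests on 1 probe set. The filter on low signals removed mez3, which has no value under it.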
